A study of Mus musculus with 30 samples.

Results

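Cyclins are the regulatory subunits of the cyclin-dependent kinases. The 10 genes described here are the cyclins of the cell cycle engine of spermatogonia and spermatocytes: the A-type Ccna1 and Ccna2, the B-type Ccnb1, Ccnb2 and Ccnb3, the D-type Ccnd1, Ccnd2 and Ccnd3, and the E-type Ccne1 and Ccne2. They were chosen by name and matched by Ensembl identifier, and they are 10 of the 65534 genes and loci in the table. All 10 have a measured value in every library.

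Polyadenylated RNA was sequenced from cells of the seminiferous tubules of male C57BL/6J mice carrying less than 10% 129S1/SvImJ, which the labels call germ cells enriched from testes, at 8, 12 and 16 days post partum (dpp). Each age has 5 libraries from Prdm9-/- mice, which lack Prdm9, the histone methyltransferase that places meiotic recombination sites. They were set against 5 libraries per age from non-mutant mice (Prdm9+/- and Prdm9+/+): 2 Prdm9+/- and 3 Prdm9+/+ at 8 dpp, 4 and 1 at 12 dpp, and 3 and 2 at 16 dpp. The mice came from 14 litters, and each litter gave both a Prdm9-/- and a non-mutant library.

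D-type cyclins pair with CDK4 and CDK6 and drive cells through G1, E-type cyclins pair with CDK2 at the start of S phase, cyclin A acts in S phase and beyond, and B-type cyclins pair with CDK1 to bring cells into division. In the juvenile testis the first wave of germ cells passes from dividing spermatogonia into meiotic prophase, and spermatocytes then wait a long time between DNA replication and division. D-type cyclins are also made by somatic cells of the testis, Sertoli cells among them.

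Levels are in TPM, a length-corrected transcript abundance that sums to the same total in each library, so that genes can be set side by side. TPM keeps no read depth, so the depth of each library is unknown. Differences are log2 fold changes of TPM + 1 with their standard error (SE), from a limma fit over the 20021 rows above 1 TPM in at least 5 libraries, and a gene is called where the adjusted p is under 0.05. Adding 1 TPM understates the change of low genes such as Ccna1 and, at 8 dpp, Ccnb3.

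The libraries hold much RNA of other cells: the 14 Sertoli cell markers were all present in every group, with sums of 5748 to 8774 TPM, against 349.7 to 2137 TPM for the 7 general germ cell markers. In bulk RNA of this kind, fewer cells of a type and less RNA per cell cannot be told apart. Prdm9 transcript, read as a check of the labels, was 6.89 to 12.8 TPM in Prdm9-/- libraries and 19.7 to 34.4 TPM in non-mutant libraries at 16 dpp. At 12 dpp it was 6.34 to 19.2 TPM in Prdm9-/- and 9.16 to 23.3 TPM in non-mutant libraries, and in litter 13 the library labelled Prdm9-/- replicate 5 (19.2 TPM) stood above the library labelled Prdm9+/- replicate 4 (9.16 TPM), against their labels. At 8 dpp the level does not check the labels, with 4.77 to 8.98 TPM in Prdm9-/- and 1.82 to 6.10 TPM in non-mutant libraries. Tests of the cyclins that involve 12 dpp were refitted without litter 13. Shares, summed levels, correlations and the results of the marker and regulator lists keep that litter.

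Between genotypes, 2 cyclins were called, both of the B type and both at 16 dpp. Ccnb3 was higher and Ccnb2 lower in Prdm9-/- libraries, while Ccnb1, the B-type cyclin that cell division cannot do without, had close to equal means. At 16 dpp the fit called 2 of the 9 cyclins tested, 1 higher and 1 lower, where 3.26% of all tested rows were called, 0.509% higher and 2.75% lower. The median log2 fold change was 0.08 over the 9 cyclins and 0.07 over all rows.

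Ccnb3 (ENSMUSG00000051592; X chromosome, 6979652 to 7041619 on the minus strand, mm10) encodes cyclin B3, which in mice is made in leptotene and zygotene spermatocytes and is needed for anaphase of the first meiotic division in oocytes. At 16 dpp its level was 36.2, 47.4, 25.8, 32.1 and 40.3 TPM in Prdm9-/- libraries, against 18.6, 17.4 and 16.9 TPM in Prdm9+/- and 15.6 and 13.8 TPM in Prdm9+/+ libraries. Every Prdm9-/- library lay above every non-mutant library. The means were 36.4 ± 8.16 TPM in Prdm9-/- and 16.5 ± 1.85 TPM in non-mutant libraries (SD, n = 5 each). Ccnb3 was thus 2.11-fold higher in Prdm9-/- libraries on the scale of the fit (log2 fold change 1.08, SE 0.24, limma adjusted p = 0.00512). Within litters the Prdm9-/- animal had the higher level in 5 of 5, by 1.84 to 3.03 times.

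At the earlier ages the genotypes overlapped for Ccnb3. At 12 dpp it had 13.4, 8.02, 20.4, 13.2 and 13.8 TPM in Prdm9-/- libraries, against 11.6, 11.7, 17.5 and 14.9 TPM in Prdm9+/- libraries and 8.15 TPM in the Prdm9+/+ library. At 8 dpp it had 4.30, 1.88, 1.35, 1.61 and 2.48 TPM in Prdm9-/- libraries, against 1.62 and 3.94 TPM in Prdm9+/- and 0.90, 1.67 and 2.51 TPM in Prdm9+/+ libraries. The difference between genotypes was 0.09 (SE 0.24) at 12 dpp and 0.10 (SE 0.24) at 8 dpp, with adjusted p = 1 in limma for both.

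Ccnb3 made up a larger part of the B-type transcripts at each later age, by group mean and with no test. Its share of their summed TPM in Prdm9-/- libraries was 1.59 ± 0.770% at 8 dpp, 10.8 ± 2.77% at 12 dpp and 24.8 ± 3.42% at 16 dpp. In non-mutant libraries it was 1.47 ± 0.722% at 8 dpp, 9.83 ± 2.50% at 12 dpp and 12.0 ± 0.497% at 16 dpp (SD, n = 5 each). Ordered by mean level at 16 dpp, Ccnb3 held rank 7 of the 10 cyclins in Prdm9-/- libraries, where its range overlapped those of its neighbours Ccnd2 and Ccnb2. In non-mutant libraries it held rank 9, next to Ccne1, whose range it also overlapped.

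**Figure D1:**
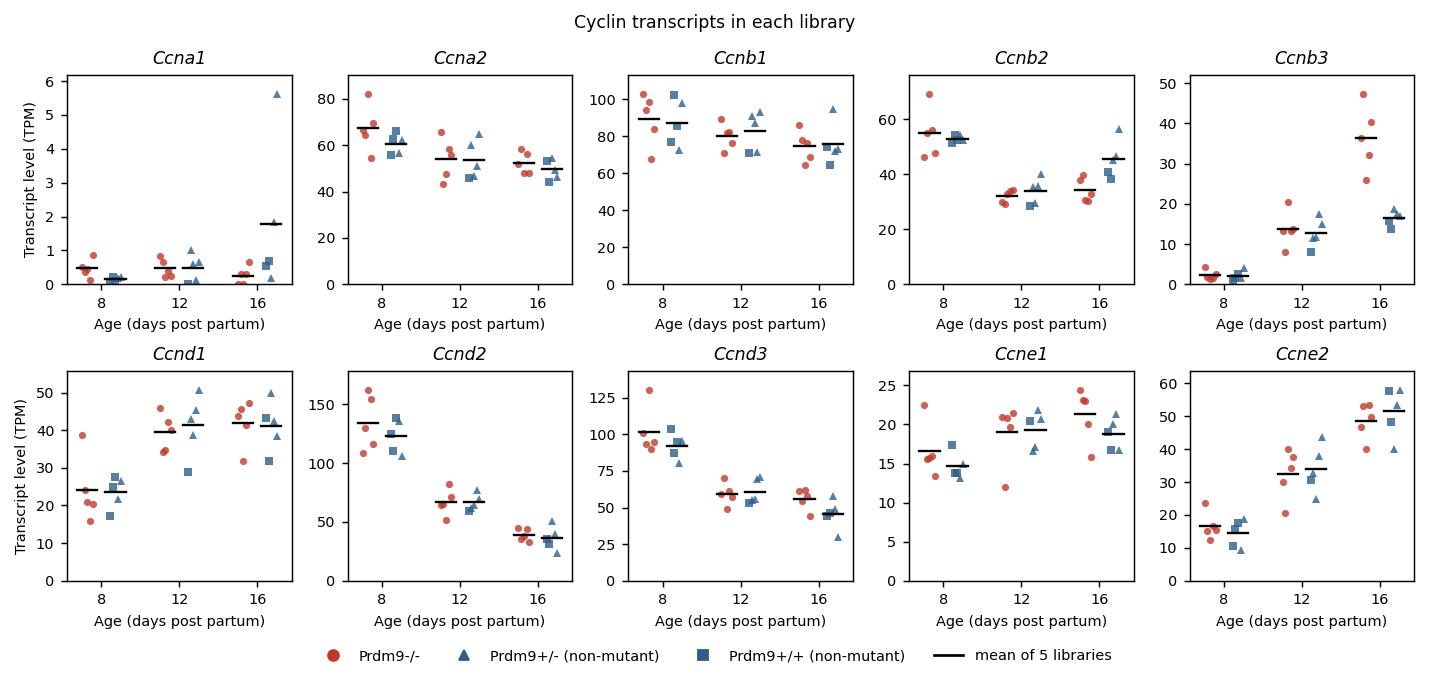
Level of each cyclin in TPM (y axes, each from 0) at 8, 12 and 16 dpp (x axes), 1 point per library and a bar at the mean of 5; circles are Prdm9-/-, triangles Prdm9+/- and squares Prdm9+/+. Ccnb3 separates by genotype at 16 dpp (25.8 to 47.4 TPM in Prdm9-/- and 13.8 to 18.6 TPM in non-mutant libraries), and Ccnd2 stands lower at each later age in both genotype classes.

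The plot of every cyclin in each library sets these levels beside those of the other 9 genes. Its panels differ in scale: Ccna1 stays under 6 TPM while Ccnd2 passes 160 TPM.

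Markers of the stages that make Ccnb3 overlapped between genotypes. The 16 leptotene and zygotene markers, all present, summed to 1224 to 1746 TPM in Prdm9-/- libraries and 1352 to 1914 TPM in non-mutant libraries at 16 dpp. The 12 pachytene markers summed to 221.2 to 271.7 TPM in Prdm9-/- libraries and 432.3 to 1799 TPM in non-mutant libraries, with no overlap, and 8 of the 10 tested were called lower. Of the 16 earlier markers 0 were called higher and 1 lower, with a median of -0.19, and the 1 is Prdm9, the gene disrupted in these mice. The part of either list in the Ccnb3 difference was not tested.

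Ccnb2 (ENSMUSG00000032218; chromosome 9, 70407692 to 70421547, minus strand) encodes the B-type cyclin that mice can lack and stay fertile. At 16 dpp its level was 37.8, 39.7, 30.6, 30.1 and 32.7 TPM in Prdm9-/- libraries, against 45.0, 46.6 and 56.3 TPM in Prdm9+/- and 41.0 and 38.4 TPM in Prdm9+/+ libraries. The groups overlapped by 1 library on each side, Prdm9-/- replicate 2 and Prdm9+/+ replicate 2. Ccnb2 was lower in Prdm9-/- libraries, at 34.2 ± 4.31 TPM against 45.4 ± 6.90 TPM in non-mutant libraries (SD, n = 5 each). The log2 fold change was -0.40 (SE 0.11, limma adjusted p = 0.0315). The Prdm9-/- animal had the lower level in 5 of 5 litters, at 0.580 to 0.968 times its mate.

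The Ccnb2 call rests in part on single libraries. Prdm9+/- replicates 2 and 3 had the highest Ccnb2 levels and also the highest pachytene marker sums, 1431 and 1799 TPM, where the other non-mutant libraries of that age had 432.3 to 688.2 TPM. Without replicate 3 the difference was -0.32 (adjusted p = 0.199), without replicate 2 it was -0.39 (adjusted p = 0.0968), and leaving out Prdm9-/- replicate 3, 4 or 5 gave -0.36, -0.36 and -0.38 with limma adjusted p = 0.109, 0.114 and 0.0783. Against Prdm9+/+ libraries alone it was -0.22 (limma adjusted p = 0.548), and with only the libraries of 16 dpp fitted it was -0.40 (limma adjusted p = 0.0996). The part of pachytene cells in the Ccnb2 difference was not tested.

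Ccnb1 (ENSMUSG00000041431, chromosome 13, 100778650 to 100786570, minus strand) had the highest mean of the 10 cyclins at 12 and 16 dpp in both genotype classes. At 12 dpp its range overlapped that of Ccnd2 in both classes. At 16 dpp Ccnb1 averaged 74.9 ± 8.46 TPM in Prdm9-/- libraries and 75.8 ± 11.4 TPM in non-mutant libraries (SD, n = 5 each). The difference was -0.01 (SE 0.12), with a 95% interval of -0.25 to 0.23. Its levels were 64.3 to 103.2 TPM in Prdm9-/- and 64.7 to 102.7 TPM in non-mutant libraries over the 3 ages.

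**Figure D2:**
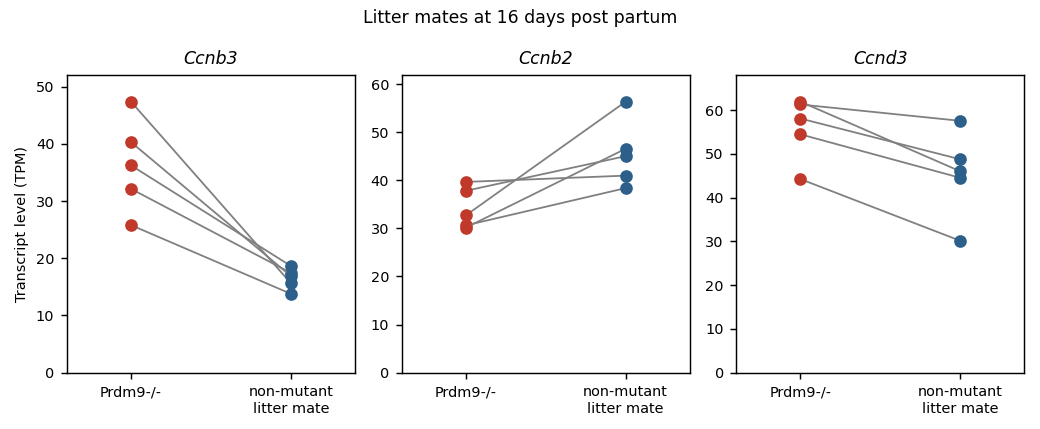
Levels of Ccnb3, Ccnb2 and Ccnd3 in TPM (y axes, each from 0) at 16 dpp, with a line from each Prdm9-/- animal (left) to its non-mutant litter mate (right), 5 litters. All 5 lines go down for Ccnb3 and Ccnd3 and up for Ccnb2.

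The plot of litter mates also shows Ccnd3, which was not called. Its level at 16 dpp was 61.3, 54.5, 62.0, 58.1 and 44.3 TPM in Prdm9-/- libraries, against 57.6, 48.8 and 30.1 TPM in Prdm9+/- and 44.5 and 46.0 TPM in Prdm9+/+ libraries. The groups overlapped, though the Prdm9-/- animal was above its mate in 5 of 5 litters, by 1.07 to 1.47 times. The log2 fold change was 0.32 (SE 0.13, limma adjusted p = 0.287), and with litter as a fixed block the limma adjusted p = 0.0690.

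The promoters of the B-type cyclins are shown because both cyclins called between genotypes, Ccnb2 and Ccnb3, are of this type, with Ccnb1 beside them as the one not called. Each window runs from 250 bases before to 50 bases after the RefSeq transcript start in GRCm38.p6, read 5′ to 3′ on the gene's strand, the minus strand in all 3, and positions count from 1 at the start, with -1 just before it. In the first and the second, capitals mark CCAAT, the box bound by the factor NF-Y, and TTTGAA, a core of the cell cycle genes homology region. In Ccnb3, which has neither, they mark AACNG, the core of the MYB motif, written CNGTT where it lies on the opposite strand.
Ccnb2, chr9:70421505-70421804: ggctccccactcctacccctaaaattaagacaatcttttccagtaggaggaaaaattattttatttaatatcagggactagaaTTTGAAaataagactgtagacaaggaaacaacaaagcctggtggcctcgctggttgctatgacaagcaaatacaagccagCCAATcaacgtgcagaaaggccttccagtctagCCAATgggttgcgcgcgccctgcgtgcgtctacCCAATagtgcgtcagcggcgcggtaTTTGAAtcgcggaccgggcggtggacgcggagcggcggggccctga
Ccnb1, chr13:100786437-100786736: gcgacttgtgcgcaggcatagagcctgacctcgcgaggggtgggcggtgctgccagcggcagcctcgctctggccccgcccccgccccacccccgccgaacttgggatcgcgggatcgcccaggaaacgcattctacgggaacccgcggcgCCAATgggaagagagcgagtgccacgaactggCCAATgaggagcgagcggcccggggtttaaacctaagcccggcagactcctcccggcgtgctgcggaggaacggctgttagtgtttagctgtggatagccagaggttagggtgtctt
Ccnb3, chrX:7041570-7041869: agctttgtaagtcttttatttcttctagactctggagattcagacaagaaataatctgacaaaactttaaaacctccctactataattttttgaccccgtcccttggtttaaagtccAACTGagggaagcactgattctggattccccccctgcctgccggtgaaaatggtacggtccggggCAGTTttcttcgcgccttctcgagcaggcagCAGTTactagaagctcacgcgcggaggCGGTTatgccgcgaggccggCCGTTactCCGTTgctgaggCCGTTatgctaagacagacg

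The Ccnb2 window holds CCAAT at -87, -54 and -21 and TTTGAA at -167 and 5. Ccnb1, which was not called between genotypes, has CCAAT at -99 and -67 and no TTTGAA. The Ccnb3 window has neither CCAAT nor TTTGAA, and it holds AACNG 7 times, 1 on its own strand and 6 on the opposite one. AACNG, not marked there, is also in the Ccnb1 window 3 times and in the Ccnb2 window 0 times. All were searched on both strands, and no match overlaps another in what is printed. Among 32851 RefSeq windows of the same length, 37.4% hold CCAAT and 3.37% hold it at least 3 times, 17.9% hold TTTGAA, and 2.31% hold it at least 2 times. AACNG is in 80.3% of them, and 0.533% hold it at least 7 times. TTCGAA (1.56% of windows) and the E2F forms TTTCCCGC, TTTGGCGC, TTTCGCGC and TTTGCCGC (any of them in 2.26%) were in none of these 3 windows. A match here is a run of letters, and no binding was measured.

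**Figure D3:**
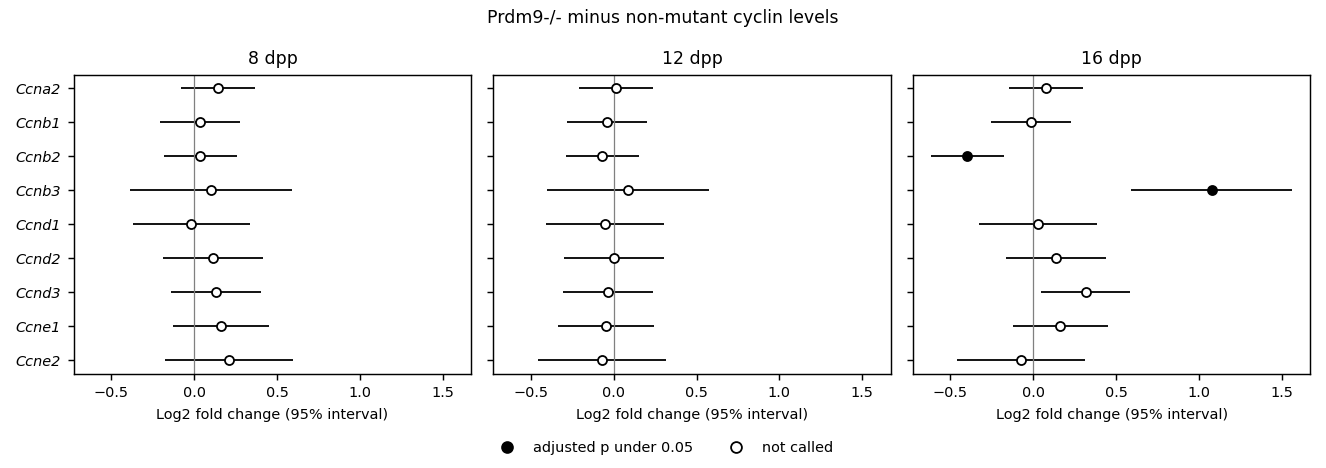
Log2 fold change of TPM + 1, Prdm9-/- minus non-mutant (x axis), with its 95% interval for the 9 tested cyclins (y axis) at 8, 12 and 16 dpp; filled points have a limma adjusted p under 0.05. Only Ccnb3 (1.08) and Ccnb2 (-0.40) at 16 dpp are filled.

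At 12 and 8 dpp no cyclin was called between genotypes. The plot of genotype differences shows the 9 estimates within 0.09 of zero at 12 dpp, where limma called 0 of 9 cyclins, 0 of them had an unadjusted p under 0.05, and 0% of all rows were called (225 rows had an unadjusted p under 0.05). At 8 dpp it also called 0 of 9, 0 of them had an unadjusted p under 0.05, and 0% of all rows were called (417 rows had an unadjusted p under 0.05). The members' medians were -0.04 at 12 dpp and 0.11 at 8 dpp, and those of all rows -0.0022 and 0.02. The 95% intervals of these differences ran from -0.46 to 0.58 at 12 dpp and from -0.39 to 0.60 at 8 dpp. Without litter 13 the count at 12 dpp was again 0.

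Prdm9+/- and Prdm9+/+ libraries were compared across the 3 ages since they are pooled as non-mutant. Limma called 0 of 9 cyclins and 0% of 18668 rows (1972 rows had an unadjusted p under 0.05). Ccnb3 was 0.44 higher in Prdm9+/- libraries (SE 0.17) with an adjusted p = 0.413, and Ccnb2 was 0.19 higher (SE 0.08) with an adjusted p = 0.447, the only 2 with an unadjusted p under 0.05. Both groups of Ccnb3 values at 16 dpp lay below every Prdm9-/- library.

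The A-type pair lay far apart in level. Ccna2 (ENSMUSG00000027715; chromosome 3, 36564865 to 36572150, minus strand), the cyclin of S phase and mitosis in most cells, had 52.4 ± 4.74 TPM in Prdm9-/- and 49.6 ± 4.38 TPM in non-mutant libraries at 16 dpp (SD, n = 5 each; log2 fold change 0.08, SE 0.11, limma adjusted p = 0.828). Ccna1 (ENSMUSG00000027793; chromosome 3, 55045469 to 55055501, minus strand), the germline A-type cyclin that male mice need to bring spermatocytes into the first meiotic division, did not pass the filter and was not tested. Its highest level in any library was 5.63 TPM.

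Ccna1 was close to 0 in most libraries. At 16 dpp it had 0, 0.31, 0, 0.30 and 0.66 TPM in Prdm9-/- libraries, against 0.20, 1.83 and 5.63 TPM in Prdm9+/- and 0.55 and 0.68 TPM in Prdm9+/+ libraries. The 2 libraries above 1 TPM are Prdm9+/- replicates 2 and 3, those with the highest pachytene marker sums. The Prdm9-/- animal had the lower value in 5 of 5 litters. Fitted with no filter over 46579 rows, the difference was -0.87 (SE 0.29, limma adjusted p = 0.160). At 12 dpp Ccna1 ran from 0.23 to 0.83 TPM in Prdm9-/- and from 0 to 1 TPM in non-mutant libraries, and at 8 dpp from 0.14 to 0.88 TPM in Prdm9-/- and from 0 to 0.23 TPM in non-mutant libraries.

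With age the make-up of the cyclin transcripts shifted away from the D type. In Prdm9-/- libraries the D type held 51.2 ± 2.74% of the summed TPM of the 10 cyclins at 8 dpp, 41.7 ± 4.41% at 12 dpp and 33.9 ± 2.002% at 16 dpp. In non-mutant libraries it held 50.8 ± 3.24%, 41.6 ± 2.12% and 31.9 ± 4.14% at the same ages (SD, n = 5 each). The E type went the other way. It held 6.59 ± 1.54%, 12.9 ± 2.60% and 17.3 ± 0.523% at 8, 12 and 16 dpp in Prdm9-/- libraries, and 6.15 ± 0.730%, 13.1 ± 1.49% and 18.5 ± 2.65% in non-mutant libraries. The B-type share was also higher in mean at each later age, while the B-type summed TPM was not. It was 28.9 ± 1.55%, 31.7 ± 2.21% and 35.8 ± 2.21% at 8, 12 and 16 dpp in Prdm9-/- libraries. In non-mutant libraries it was 30.2 ± 2.52%, 31.9 ± 2.05% and 36.0 ± 2.46% (SD, n = 5 each). The A-type share stayed between 12.9 and 13.7% in the means of all 6 groups. These shares are descriptions with no test, and a share can rise because another falls. At 8, 12 and 16 dpp the mean B-type sums were 146.8, 126.0 and 145.4 TPM in Prdm9-/- libraries. In non-mutant libraries they were 142.2, 129.3 and 137.7 TPM. The mean D-type sums were 260.0, 165.8 and 136.9 TPM in Prdm9-/- and 239.0, 168.8 and 122.7 TPM in non-mutant libraries.

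**Figure D4:**
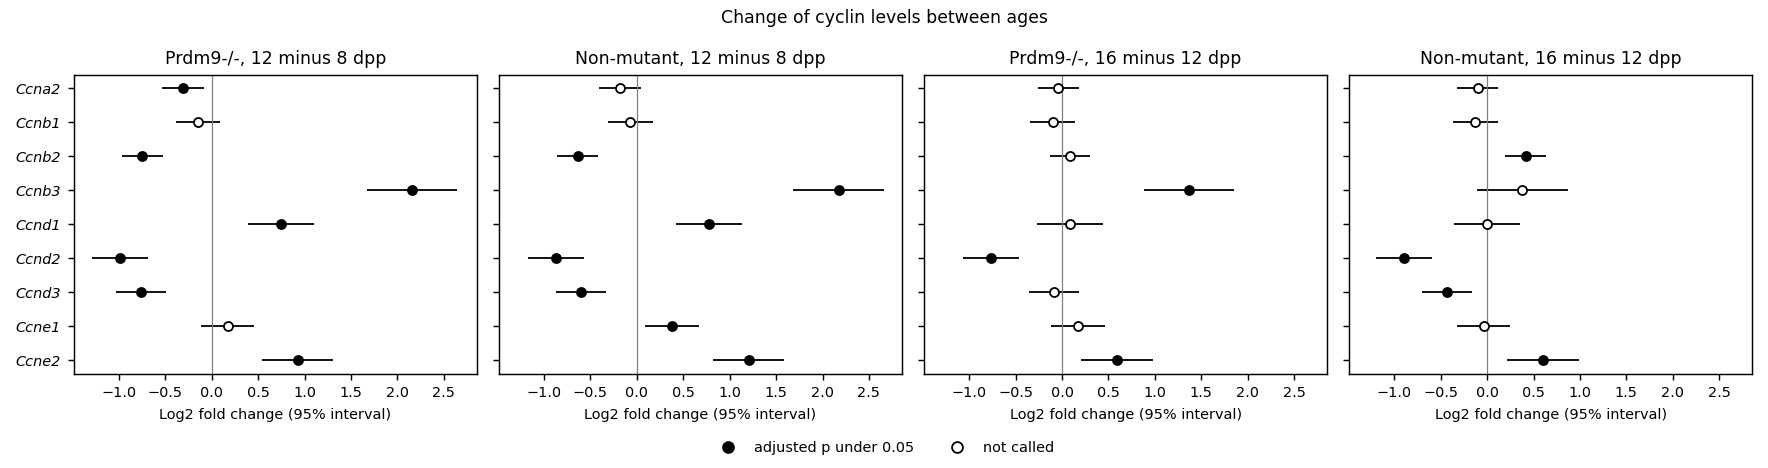
Log2 fold change of TPM + 1 between successive ages, later minus earlier (x axis), with its 95% interval for the 9 tested cyclins (y axis), in Prdm9-/- and non-mutant libraries; filled points have a limma adjusted p under 0.05. Ccnb3 has the largest step, 2.16 in Prdm9-/- and 2.17 in non-mutant libraries between 8 and 12 dpp, and Ccnd2 lies below zero in all 4 panels.

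Between 8 and 12 dpp the test called 7 of 9 cyclins in each genotype class. In Prdm9-/- libraries 3 rose and 4 fell (29.7% of all rows were called, 17.5% higher and 12.2% lower), and in non-mutant libraries 4 rose and 3 fell (32.5% of all rows, 20.3% higher and 12.1% lower). The members' medians were -0.15 in Prdm9-/- and -0.07 in non-mutant libraries, beside 0.06 and 0.09 over all rows. As the plot of age steps shows, Ccnb3, Ccne2 and Ccnd1 rose and Ccnd2, Ccnd3 and Ccnb2 fell in both classes, while Ccna2 was called in Prdm9-/- libraries alone and Ccne1 in non-mutant libraries alone. The difference of this step between the classes was called for 0 of 9 cyclins, 0 of them had an unadjusted p under 0.05, and 0% of all rows were called (367 rows had an unadjusted p under 0.05).

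In the later step, from 12 to 16 dpp, fewer cyclins were called. In Prdm9-/- libraries Ccnb3 and Ccne2 rose and Ccnd2 fell, 3 of 9 (12.1% of all rows were called, 6.21% higher and 5.89% lower). In non-mutant libraries Ccne2 and Ccnb2 rose and Ccnd2 and Ccnd3 fell, 4 of 9 (21.8% of all rows, 8.88% higher and 13% lower). The medians were 0.08 in Prdm9-/- and -0.04 in non-mutant libraries, beside -0.0035 and -0.09 over all rows.

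For Ccnb3 and Ccnb2 this later step was called in 1 genotype class each. Ccnb3 rose by 1.37 in Prdm9-/- libraries (SE 0.24, limma adjusted p = 0.000254) and differed by 0.38 in non-mutant libraries (SE 0.24, adjusted p = 0.269). The difference between these steps was 0.99 (SE 0.34), with an unadjusted p under 0.05 that did not pass the adjustment (limma adjusted p = 0.246). For Ccnb2 the step was 0.09 in Prdm9-/- libraries (SE 0.11, limma adjusted p = 0.679) and 0.41 in non-mutant libraries (SE 0.11, adjusted p = 0.00601), with a difference of -0.33 (SE 0.15, adjusted p = 0.633). With 1 control genotype at each age, Prdm9+/+ at 16 dpp and Prdm9+/- at 12 dpp, the non-mutant step of Ccnb2 was 0.18 (limma adjusted p = 0.429). Of all rows, 1.35% were called for this difference of steps (0.0849% higher and 1.26% lower), and 0 of 9 cyclins were, while 2 had an unadjusted p under 0.05. The cyclins' median was 0.08 and that of all rows 0.07. The 12 and 16 dpp steps and the genotype difference at 16 dpp share libraries.

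In the step before, Ccnb3 rose by 2.16 in Prdm9-/- libraries (SE 0.24, limma adjusted p = 8.89e-08) and by 2.17 in non-mutant libraries (SE 0.24, adjusted p = 1.09e-07). No 12 dpp library overlapped an 8 dpp library of its class. Over the same step the 16 leptotene and zygotene markers, 15 of them called higher in Prdm9-/- and all 16 in non-mutant libraries, had sums of 534.8 to 929.9 TPM at 12 dpp, against 164.9 to 455.1 TPM at 8 dpp, in Prdm9-/- libraries. In non-mutant libraries they had 686.2 to 992.1 TPM at 12 dpp, against 164.6 to 336.0 TPM at 8 dpp. Their part in the rise of Ccnb3 was not tested.

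Ccnb2 was lower at 12 than at 8 dpp in both classes. Prdm9-/- libraries had 29.96, 29.1, 32.9, 34.0 and 34.2 TPM at 12 dpp, against 46.2, 55.0, 69.3, 56.1 and 47.8 TPM at 8 dpp. Non-mutant libraries had 28.5 to 40.1 TPM at 12 dpp, against 51.2 to 54.4 TPM at 8 dpp. The 2 ages did not overlap in either class. Ccnb2 fell by 0.75 on the log2 scale in Prdm9-/- (SE 0.11, limma adjusted p = 5.00e-06) and fell by 0.64 in non-mutant libraries (SE 0.11, adjusted p = 4.04e-05). For Ccnb1 the step from 8 to 12 dpp was -0.15 (SE 0.12, limma adjusted p = 0.376) in Prdm9-/- and -0.07 (SE 0.12, adjusted p = 0.678) in non-mutant libraries.

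Ccnd2 (ENSMUSG00000000184; chromosome 6, 127125162 to 127152193, minus strand), a D-type cyclin of spermatogonia and Sertoli cells, had the highest mean of the 10 cyclins at 8 dpp. Prdm9-/- libraries had 108.1, 129.4, 162.0, 154.7 and 115.9 TPM at 8 dpp, 64.2, 65.4, 52.0, 82.4 and 70.9 TPM at 12 dpp, and 44.6, 35.5, 37.6, 44.3 and 32.7 TPM at 16 dpp. Non-mutant libraries had 105.7 to 138.1 TPM at 8 dpp, 59.7 to 77.3 TPM at 12 dpp and 23.9 to 50.6 TPM at 16 dpp. In both classes no library of an age overlapped one of another age.

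Between 8 and 12 dpp Ccnd2 fell by 0.99 in Prdm9-/- (SE 0.15, limma adjusted p = 8.30e-06) and fell by 0.87 in non-mutant libraries (SE 0.15, adjusted p = 4.26e-05). Over the next step, 12 to 16 dpp, it fell by 0.76 in Prdm9-/- (SE 0.15, limma adjusted p = 0.000798) and fell by 0.90 in non-mutant libraries (SE 0.15, adjusted p = 4.67e-05). Its share of the D-type TPM in Prdm9-/- libraries was 51.4 ± 5.66% at 8 dpp, 40.2 ± 2.90% at 12 dpp and 28.4 ± 2.05% at 16 dpp. In non-mutant libraries it was 51.4 ± 3.98%, 39.6 ± 2.16% and 29.1 ± 2.34% (SD, n = 5 each).

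Ccnd3 (ENSMUSG00000034165; chromosome 17, 47505051 to 47599691, plus strand), another D-type cyclin, fell between 8 and 12 dpp in both classes. It averaged 59.4 ± 7.45 TPM at 12 dpp against 101.9 ± 16.4 TPM at 8 dpp in Prdm9-/- libraries (log2 fold change -0.77, SE 0.13, limma adjusted p = 5.59e-05). In non-mutant libraries it averaged 60.9 ± 8.60 TPM at 12 dpp against 92.4 ± 8.69 TPM at 8 dpp (SD, n = 5 each; -0.60, SE 0.13, limma adjusted p = 0.000856). Its step between 12 and 16 dpp was -0.08 in Prdm9-/- libraries (SE 0.13, limma adjusted p = 0.752) and -0.43 in non-mutant libraries (SE 0.13, adjusted p = 0.0179), with a difference between them of 0.35 (SE 0.19, adjusted p = 0.751). The non-mutant call was lost without litter 13 (-0.38, limma adjusted p = 0.0625), as it was without Prdm9+/- replicate 3 or 4 of 12 dpp (-0.38 each) or Prdm9+/- replicate 3 of 16 dpp (-0.30). With 1 control genotype per age the step was -0.45 (limma adjusted p = 0.0510).

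Ccnd1 (ENSMUSG00000070348; chromosome 7, 144929931 to 144939925, minus strand) ran against the other D-type cyclins. Prdm9-/- libraries had 38.8, 24.1, 21.02, 15.95 and 20.3 TPM at 8 dpp, 46.0, 34.1, 34.8, 42.1 and 40.1 TPM at 12 dpp, and 43.8, 45.5, 31.7, 41.5 and 47.2 TPM at 16 dpp. Non-mutant libraries had 17.1 to 27.5 TPM at 8 dpp, 28.9 to 50.7 TPM at 12 dpp and 31.9 to 49.9 TPM at 16 dpp. Ccnd1 rose between 8 and 12 dpp by 0.74 in Prdm9-/- (SE 0.17, limma adjusted p = 0.00162) and by 0.78 in non-mutant libraries (SE 0.17, adjusted p = 0.000968). Only Prdm9-/- replicate 1 at 8 dpp reached the 12 dpp range of its class. Its steps between 12 and 16 dpp were 0.08 (SE 0.17) in Prdm9-/- and 0.0025 (SE 0.17) in non-mutant libraries, neither called.

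The Sertoli cell markers moved in both directions between 8 and 12 dpp. Their mean sums in Prdm9-/- libraries were 6800 ± 881 TPM at 8 dpp, 8429 ± 138 TPM at 12 dpp and 7394 ± 540 TPM at 16 dpp. In non-mutant libraries they were 7829 ± 798, 8013 ± 709 and 7032 ± 269.9 TPM (SD, n = 5 each). The mean sum was not lower at 12 than at 8 dpp in either class, though a sum weighs the most abundant markers most. Over that step the median log2 fold change of the markers was -0.09 in Prdm9-/- and -0.24 in non-mutant libraries. Of the 14 markers, 5 rose and 2 fell between 8 and 12 dpp in Prdm9-/- libraries, and 5 rose and 7 fell in non-mutant libraries. From then to 16 dpp, 0 rose and 4 fell in Prdm9-/-, and 0 rose and 6 fell in non-mutant libraries. Their medians in this later step were -0.20 in Prdm9-/- and -0.32 in non-mutant libraries. Markers of spermatogonia are the other list to set beside Ccnd2. The 10 of undifferentiated spermatogonia, all present, summed to 201.3 ± 64.0, 213.8 ± 21.5 and 170.4 ± 23.7 TPM at 8, 12 and 16 dpp in Prdm9-/- libraries, and to 189.0 ± 15.1, 200.4 ± 31.6 and 174.4 ± 20.4 TPM in non-mutant libraries (SD, n = 5 each). Between 8 and 12 dpp 0 of them rose and 1 fell in each class, with medians of 0.11 in Prdm9-/- and 0.05 in non-mutant libraries. From 12 to 16 dpp 1 rose and 3 fell in each class, with medians of -0.52 in Prdm9-/- and -0.42 in non-mutant libraries, in the step in which Ccnd2 fell further. Of 7 markers of differentiating spermatogonia 6 rose and 0 fell between 8 and 12 dpp in each class, and 0 were called from 12 to 16 dpp in either. The part of these cell types in the D-type results was not tested.

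Ccne2 (ENSMUSG00000028212; chromosome 4, 11191351 to 11204779, plus strand), an E-type cyclin that pairs with CDK2 and is needed for full fertility of male mice, stood higher at each later age. In Prdm9-/- libraries it had 23.7, 15.1, 12.2, 16.6 and 15.3 TPM at 8 dpp, 30.02, 20.5, 40.1, 34.2 and 37.7 TPM at 12 dpp, and 46.7, 53.0, 39.9, 53.6 and 49.8 TPM at 16 dpp. Non-mutant libraries had 9.25 to 18.9 TPM at 8 dpp, 24.7 to 43.8 TPM at 12 dpp and 39.9 to 58.0 TPM at 16 dpp. In Prdm9-/- libraries neighbouring ages overlapped by single libraries. In non-mutant libraries 8 and 12 dpp did not overlap, while 12 and 16 dpp overlapped by single libraries.

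Between 8 and 12 dpp Ccne2 rose by 0.92 in Prdm9-/- (SE 0.19, limma adjusted p = 0.000406) and by 1.205 in non-mutant libraries (SE 0.19, adjusted p = 1.63e-05). It rose further between 12 and 16 dpp, by 0.59 in Prdm9-/- (SE 0.19, limma adjusted p = 0.0368) and by 0.60 in non-mutant libraries (SE 0.19, adjusted p = 0.0222). These later calls depend on single libraries. The Prdm9-/- call was lost without replicate 1, 2 or 4 of 12 dpp or replicate 1, 2, 4 or 5 of 16 dpp, with steps of 0.44 to 0.62, and with no filter on low values (0.59, limma adjusted p = 0.0852). The non-mutant call was lost without Prdm9+/- replicate 2 of 12 dpp (0.50), Prdm9+/+ replicate 1 of 16 dpp (0.56) or Prdm9+/- replicate 3 of 16 dpp (0.55), and with 1 control genotype per age (0.62, limma adjusted p = 0.106). At 16 dpp Ccne2 averaged 48.6 ± 5.59 TPM in Prdm9-/- and 51.5 ± 7.58 TPM in non-mutant libraries (SD, n = 5 each; log2 fold change -0.08, SE 0.19, limma adjusted p = 0.908).

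Ccne1 (ENSMUSG00000002068; chromosome 7, 38097984 to 38107534, minus strand), the other E-type cyclin, moved less. Its group means lay between 16.6 and 21.3 TPM in Prdm9-/- and between 14.6 and 19.3 TPM in non-mutant libraries. Its step between 8 and 12 dpp was 0.17 in Prdm9-/- libraries (SE 0.14, limma adjusted p = 0.393), and it rose by 0.38 in non-mutant libraries (SE 0.14, adjusted p = 0.0405). The difference between these steps was -0.21 (SE 0.20, limma adjusted p = 1). The non-mutant call was lost without litter 13 (0.35, limma adjusted p = 0.0867), with median-ratio scaling (0.29), with no filter on low values (0.38), with 1 control genotype per age (0.32), and without any 1 of 7 libraries: Prdm9+/+ replicate 2 or 3 or Prdm9+/- replicate 1 or 2 of 8 dpp, and Prdm9+/+ replicate 1 or Prdm9+/- replicate 3 or 4 of 12 dpp (0.33 to 0.39). Ccne2 accordingly made up a larger share of the E-type TPM at later ages: 49.7 ± 3.68%, 63.0 ± 2.56% and 69.5 ± 5.09% at 8, 12 and 16 dpp in Prdm9-/- libraries, and 48.8 ± 8.72%, 63.3 ± 3.89% and 73.0 ± 4.22% in non-mutant libraries (SD, n = 5 each).

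Ccna2 had small steps between ages. It had 65.8, 43.3, 47.7, 58.4 and 56.0 TPM at 12 dpp, against 66.5, 64.3, 82.2, 54.6 and 69.6 TPM at 8 dpp, in Prdm9-/- libraries, with overlap between the ages. It fell by 0.31 in these libraries (SE 0.11, limma adjusted p = 0.0314), and the step was -0.18 (SE 0.11, adjusted p = 0.214) in non-mutant libraries. The difference between these steps was -0.13 (SE 0.16, limma adjusted p = 1). Leaving out Prdm9-/- replicate 3 or 5 of 8 dpp, or replicate 2 or 3 of 12 dpp, ended the call, with steps of -0.24, -0.30, -0.24 and -0.27, as did fitting with no filter on low values (-0.31, limma adjusted p = 0.0683).

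Some of these levels may take in reads of other genes, since the use of read strand is not stated. Ccna2, Ccnd1, Ccnd3 and Ccne2 each overlap a protein-coding gene on the opposite strand that was itself measured: Exosc9 (19.6 to 84.0 TPM), LTO1 (11.7 to 34.0 TPM), Bysl (15.7 to 23 TPM) and Ints8 (45.0 to 91.3 TPM). Reads of Ccnb2 can also be shared with its pseudogene Ccnb2-ps, listed at 0.63 to 2.66 TPM, while Ccnb1-ps and Ccnd3-ps stayed at or under 0.52 TPM. Ccnb3 has no overlapping gene in the annotation used. No pseudogene rows besides Ccnb1-ps, Ccnb2-ps and Ccnd3-ps were looked for, for Ccnb3 or any other cyclin.

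The transcripts that varied most like each cyclin over the 30 libraries are given as Pearson's r of log2(TPM + 1), as a description, since all libraries share ages, litters and cell mixtures. For Ccnb3 they were Pet2 (0.989), Tex16 (0.980) and Nrip3 (0.976), of which Pet2 and Tex16 are X-linked like Ccnb3. For Ccnb2 they were Prc1, a microtubule bundler of the dividing cell (0.959), Hint1 (0.884) and Pbk, a mitotic kinase (0.877). Ccne2 varied like Majin, which ties telomeres to the nuclear envelope in meiosis (0.979), the checkpoint kinase Bub1 (0.979) and the chromosome axis gene Hormad1 (0.979). Ccnd2 varied like Lpl (0.983), Map3k1 (0.983) and Nectin1 (0.979), Ccnd3 like Ltbp4 (0.959), Selenon (0.958) and Inhba (0.953), and Ccnd1 like Cnksr2 (0.953), Dennd2c (0.950) and Slc17a7 (0.949).

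The steadier cyclins had looser neighbours. Ccna2 varied like the centromere histone Cenpa (0.892), Plpp5 (0.831) and the replication helicase subunit Mcm6 (0.808), and Ccnb1 like Mcm2 (0.819), Wwc1 (0.801) and Cenpa (0.786). Ccne1 varied like Cdr2 (0.866) and Taf5 (0.850). Ccna1 varied like Haspin (0.855), Tcp10c (0.837) and Tcp10b (0.833), with most of its values under 1 TPM.

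The partners and regulators of the cyclins were read from lists chosen by function, and their counts are to be read beside the shares of all rows given above. Of 9 partner kinases and CKS subunits, 3 rose and 4 fell between 8 and 12 dpp in each class. Cdk1, the kinase of the B-type cyclins, fell by 0.91 in Prdm9-/- (SE 0.12) and fell by 0.98 in non-mutant libraries (SE 0.12), and Cks1b and Cdk4 also fell (Cdk4 fell by 0.44 in Prdm9-/- and fell by 0.42 in non-mutant libraries). Speedya, an activator of CDK2 at meiotic telomeres, rose by 1.99 in Prdm9-/- (SE 0.21) and by 2.32 in non-mutant libraries (SE 0.21). From 12 to 16 dpp 3 rose and 2 fell in each class, and Cdk1 rose by 0.55 in Prdm9-/- (SE 0.12) and by 0.66 in non-mutant libraries (SE 0.12). Cks2 rose in that step by 0.50 in Prdm9-/- and by 0.82 in non-mutant libraries (SE 0.11 each). At 16 dpp 1 of the 9 differed between genotypes: Cks2, which binds CDK1 and is needed for meiotic division in mice, averaged 169.3 ± 16.7 TPM in Prdm9-/- and 226.7 ± 43.2 TPM in non-mutant libraries (SD, n = 5 each; log2 fold change -0.40, SE 0.11, limma adjusted p = 0.0263).

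Of the 7 CDK inhibitors, 3 rose and 2 fell between 8 and 12 dpp in Prdm9-/- libraries, and 3 rose and 3 fell in non-mutant libraries. Cdkn2d, an inhibitor of CDK4 and CDK6 made in spermatocytes, rose by 1.09 in Prdm9-/- (SE 0.12) and by 1.07 in non-mutant libraries (SE 0.12), and Cdkn2c fell by 0.83 in Prdm9-/- and fell by 0.90 in non-mutant libraries. From 12 to 16 dpp 5 rose and 0 fell in Prdm9-/-, and 3 rose and 0 fell in non-mutant libraries. Cdkn2d rose again in that step, by 0.71 in Prdm9-/- (SE 0.12) and by 0.68 in non-mutant libraries (SE 0.12), and Cdkn2c rose by 0.55 in Prdm9-/- and by 0.97 in non-mutant libraries (SE 0.15 each). At 16 dpp limma called 0 of the 7 between genotypes, and 1 had an unadjusted p under 0.05.

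Members of the RB family are targets of the kinases of D-type cyclins. Among 13 genes of the RB and E2F families, 3 rose and 2 fell between 8 and 12 dpp in Prdm9-/- libraries. In non-mutant libraries 2 rose and 1 fell. Rb1 rose by 0.66 in Prdm9-/- (SE 0.13) and by 0.77 in non-mutant libraries (SE 0.13). The repressor E2f6 fell in both steps and both classes, by 0.39 in Prdm9-/- and fell by 0.33 in non-mutant libraries between 8 and 12 dpp, and fell by 0.40 in Prdm9-/- and fell by 0.45 in non-mutant libraries between 12 and 16 dpp. Between 12 and 16 dpp 0 rose and 1 fell in Prdm9-/-, and 1 rose and 2 fell in non-mutant libraries, and limma called 0 between genotypes at 16 dpp, where 1 had an unadjusted p under 0.05.

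Of the 22 subunits and regulators of the ubiquitin ligases that destroy cyclins, 21 were tested. Between 8 and 12 dpp 4 rose and 1 fell in Prdm9-/-, and 6 rose and 1 fell in non-mutant libraries, with Fbxw7, the receptor for cyclin E, up by 0.41 in Prdm9-/- (SE 0.09) and by 0.64 in non-mutant libraries (SE 0.09). Between 12 and 16 dpp 2 rose and 0 fell in Prdm9-/-, and 3 rose and 1 fell in non-mutant libraries. Cdc20, an activator of the anaphase-promoting complex, rose by 0.51 in Prdm9-/- (SE 0.12) and by 0.61 in non-mutant libraries (SE 0.12). Fbxo43, an inhibitor of that complex, which spares B-type cyclins, was the 1 member called between genotypes at 16 dpp. It averaged 1.16 ± 0.132 TPM in Prdm9-/- and 3.62 ± 1.74 TPM in non-mutant libraries (SD, n = 5 each; log2 fold change -1.01, SE 0.18, limma adjusted p = 0.000458).

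Other genes with a cyclin box, or named for one, numbered 22. Between 8 and 12 dpp 4 rose and 3 fell in Prdm9-/-, and 5 rose and 3 fell in non-mutant libraries, and between 12 and 16 dpp 2 rose and 1 fell in Prdm9-/-, and 5 rose and 3 fell in non-mutant libraries. Cables1 fell by 1.57 in Prdm9-/- and fell by 1.60 in non-mutant libraries between 8 and 12 dpp, and fell by 0.83 in Prdm9-/- and fell by 0.84 in non-mutant libraries between 12 and 16 dpp. Cntd1, a cyclin-like gene that mouse spermatocytes need to mature crossovers, rose between 12 and 16 dpp by 1.46 in Prdm9-/- and by 2.35 in non-mutant libraries (SE 0.20 each) and was the 1 member called at 16 dpp. It averaged 27.1 ± 4.60 TPM in Prdm9-/- and 61.2 ± 21.3 TPM in non-mutant libraries (SD, n = 5 each; log2 fold change -1.10, SE 0.20, limma adjusted p = 0.000719).

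Of 22 regulators of cyclin transcripts, 21 were tested, and between 8 and 12 dpp 9 rose and 1 fell in Prdm9-/-, and 10 rose and 0 fell in non-mutant libraries. Meiosin, which acts with Stra8 to switch on meiotic genes in mice, rose by 2.90 in Prdm9-/- and by 2.66 in non-mutant libraries (SE 0.34 each). Meioc and Ythdc2, which act together on transcripts of the mitotic program, cyclin A2 among them in mice, both rose. Meioc rose by 2.36 in Prdm9-/- (SE 0.29) and by 2.35 in non-mutant libraries (SE 0.29), and Ythdc2 rose by 0.87 in Prdm9-/- and by 1.09 in non-mutant libraries (SE 0.13 each). Between 12 and 16 dpp 4 rose and 0 fell in Prdm9-/-, and 6 rose and 1 fell in non-mutant libraries, with Lin9 of the MuvB complex up by 0.55 in Prdm9-/- and by 0.66 in non-mutant libraries (SE 0.10 each). At 16 dpp the 1 member called between genotypes was Tcfl5, a transcription factor of spermatocytes, at 43.2 ± 4.87 TPM in Prdm9-/- and 72.2 ± 20.8 TPM in non-mutant libraries (SD, n = 5 each; log2 fold change -0.69, SE 0.19, limma adjusted p = 0.0331).

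Of the 95 genes on these 6 lists 93 were tested. Between genotypes limma called 0 of them at 12 dpp, where 0 had an unadjusted p under 0.05, and 0 at 8 dpp, where 1 had. The list medians lay between -0.02 and 0.02 at 12 dpp, between -0.05 and 0.10 at 8 dpp, and between -0.01 and 0.09 at 16 dpp. For the step between 8 and 12 dpp they lay between -0.19 and 0.32 in Prdm9-/- and between -0.27 and 0.32 in non-mutant libraries. For the step between 12 and 16 dpp they lay between -0.01 and 0.55 in Prdm9-/- and between -0.12 and 0.31 in non-mutant libraries. The difference of this later step between the classes was called for Fbxo43 (-1.06, SE 0.26, limma adjusted p = 0.0269) and for no other of the 93. The 4 regulators called at 16 dpp, Cks2, Fbxo43, Cntd1 and Tcfl5, were all lower in Prdm9-/- libraries. That is 4 of 93, where 3.26% of all rows were called and 551 of those 653 rows were lower, so the count and its direction are near those of all rows. The 8 pachytene markers were also lower, and the part of pachytene cells in these differences was not tested.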

How the data were processed

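The authors deposited TPM per gene, transcript shares scaled to a fixed total, to 2 decimals, with animal and litter in the header. Per the submitters' processing notes, Bowtie 1.0.0, RSEM 1.2.8 and mm10 (GRCm38) were used, in roles not given in the sources used here. Between 3.23 and 3.95% of each library's TPM lies outside the part of the table held. Per the labels' protocols, tubules were digested with Liberase and washed free of interstitial cells. Leydig cell markers still summed to 105.2 to 645.3 TPM, macrophage and leukocyte markers to 29.0 to 153.8 TPM, and endothelial markers to 30.5 to 99.4 TPM. At 16 dpp the median difference between genotypes was 0.69 for 7 Leydig markers and 0.49 for 6 macrophage and leukocyte markers. Limma called 0 of either list, and 3 of each had an unadjusted p under 0.05. Each library is 1 animal, so p-values measure the spread between animals, and the main fit takes litter mates as independent. Each litter has a single age, so steps between ages compare different litters, 4 at 8 dpp and 5 at each later age. Differences between litters are part of those steps. GENCODE M21 gave symbols and positions for 37709 of 38906 Ensembl rows. The cyclins, the gene lists and the tests were chosen with earlier results of these data known.

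In R 4.3.3, limma 3.58.1 fitted log2(TPM + 1) with a trended variance in 6 groups, mutant or non-mutant at 3 ages, over the 20021 rows above 1 TPM in at least 5 libraries, with Benjamini-Hochberg adjustment over all rows. Prdm9+/- and Prdm9+/+ were compared over 18668 rows with age as a factor. Litter names in the header pair the animals: deviations of 17 pairs of Prdm9-/- and non-mutant litter mates correlated at a median of 0.220, 13 of them over 0.1, against -0.084 for 58 pairs of other litters. Litter was therefore tried as a random block, and as a fixed block for differences between genotypes and of steps. Other alternatives changed the pseudocount, the filter, the scaling, the control genotype and the libraries. All 10 cyclins are named, as are the 3 genes most correlated with each (symbols other than predicted or clone names, mean at least 1 TPM) and, from each regulator list, genes among the 4 called with the smallest adjusted p in a comparison. One of the correlated genes is not reported here. The fit was tested on simulated data.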

Additional observations from a re-analysis of the deposited data

Results flagged for a closer look

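Single libraries stood apart for 2 cyclins, by a gap to the nearest library that was large against the range of their group of 5. Of the 60 groups of 5 examined this way (10 cyclins in 6 groups), 3 stood out, and chance gives about 1 in 20. Ccnd3 was 130.31 TPM in Prdm9-/- replicate 3 at 8 dpp, where the other 4 libraries of that group had 89.8 to 101.2 TPM. Ccne1 was 22.44 TPM in Prdm9-/- replicate 1 at 8 dpp, where the others had 13.4 to 16.0 TPM. That library also had the highest general germ cell marker sum of its group, 968.7 TPM against 349.7 to 570.2 TPM. A link between them was not tested. Ccne1 was 11.98 TPM in Prdm9-/- replicate 2 at 12 dpp, where the others had 19.6 to 21.4 TPM.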

How the results depend on the processing

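The 23 calls of a cyclin in a comparison were fitted 845 times under the alternatives: 804 fits kept the call, 41 lost it and 0 reversed its direction. The Ccnb3 call at 16 dpp was kept in all of its alternatives, at 0.98 to 1.23 with adjusted p between 0.00139 and 0.0492 in limma. The number of cyclins called at 16 dpp between genotypes (2) was 1 with only libraries of that age fitted and 1 with 1 control genotype per age, and the number called between 12 and 16 dpp in non-mutant libraries (4) was 1 with 1 control genotype per age. Leaving out each library in turn gave 1 to 2 calls between genotypes at 16 dpp and 0 to 0 at 12 dpp, at 8 dpp, for both differences of steps and for Prdm9+/- against Prdm9+/+. It gave 6 to 7 calls between 8 and 12 dpp in either class, and between 12 and 16 dpp 2 to 3 in Prdm9-/- and 2 to 4 in non-mutant libraries. With the replicate block, litter fixed or random, 2 cyclins were again called at 16 dpp. The fixed block was fitted only for differences between genotypes and of steps, since each litter has a single age. It therefore did not test the calls between ages, for which only the random block was fitted. Neither block changed any other call of a cyclin in the comparisons it was fitted for. Over all rows the block called 1037 (fixed) and 1103 (random), where 653 were called without it, no filter called 1181 and 1 control genotype per age called 191. Median-ratio scaling called 60 rows higher and 702 lower, where 102 and 551 were called without it. The causes were not tested. Without read depth, the counting error of low levels such as those of Ccna1 cannot be given.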
